A study of Homo sapiens with 4 samples.

Results

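Caspases and the proteins that set them off or carry out part of their work were followed in Jurkat, an immortal T cell line derived from a human leukemia. The 8 genes were taken by symbol: the initiator caspases CASP2, CASP8, CASP9 and CASP10, the executioner caspase CASP6, the scaffold APAF1, and the DNA fragmentation factors DFFA and DFFB. Every row of the deposited table that carried one of these symbols was taken, which gave 10 rows for 8 genes, out of 16328 rows for 15230 gene symbols. CASP8 and CASP10 had 2 rows each, which hold different transcripts of the same gene.

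The Control group was 1 library, and what its cells received is not said in the labels; the SLEAR shRNA group was 3 libraries, numbered 1 to 3, from cells given lentiviral hairpins against SLEAR. All cells were Jurkat, grown in the same medium, and polyadenylated RNA was read next to its 3′ end by MAPS (Multiplex Analysis of PolyA-linked Sequences). Values were RPM, read numbers scaled to a common library total by the authors. Whether the numbers mark different hairpins or repeats of 1 hairpin, and whether cultures were separate, is not given in the labels, so p-values reflect no more than how these libraries vary, possibly for technical reasons. The level of SLEAR was not analysed here, and the knockdown is unchecked.

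Caspases are cysteine proteases that lie dormant as zymogens and cut their targets after aspartate. Initiators are activated by clustering on a platform: CASP8 and CASP10 on death receptors through the adaptor FADD, CASP9 on the apoptosome, a wheel built from APAF1, and CASP2 on a complex that contains PIDD1 and CRADD. Active initiators cleave executioner caspases, which then cut structural and regulatory proteins. Among these is DFFA, the inhibitor and chaperone of the nuclease DFFB, and its cleavage frees DFFB to cut chromatin between nucleosomes. These steps act on proteins, so transcript levels describe supply of the parts and not their activity.

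Because reads were taken next to the poly(A) tail, the annotated transcript ends are shown. Whether the 2 rows of a gene were separated by their ends was not tested. The last 30 bases of the longest GENCODE 29 (GRCh38) transcript of a row are shown for both rows of CASP8, for CASP10 row 1, CASP2 and CASP6, 5′ to 3′ on the transcript strand, with a polyadenylation signal, AATAAA or ATTAAA, in capitals where these letters occur.
CASP8 row 1: cagctacgaatatagagggttttgctcttg
CASP8 row 2: taatagAATAAAatataatttgatcttatt
CASP10 row 1: atccttaATTAAAagaaatggtaacacctc
CASP2: tgccaAATAAAtgctcatatttattactga
CASP6: ttAATAAActgcagggttacacaaaaatct

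CASP8 row 1 holds 1 accession, NM_033358, a transcript of 1060 bases, while the longest transcript of row 2, which holds 6 accessions, has 2930 bases. CASP10 row 1 likewise holds 1 accession, with a transcript of 1126 bases. CASP8 row 1, CASP9 and DFFA had neither letter string in the last 30 bases of the transcript strand. Of 15383 rows with a matched transcript, 53.4% held AATAAA, 15% ATTAAA and 66.5% either, where a transcript can hold both. The absence of the letters says only that they are not in this window of this annotation.

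The libraries held an estimated 4814167 to 8384885 reads. SLEAR shRNA-3 was the shallowest and stood apart: its correlation with the other libraries across tested rows was 0.878 to 0.886, against 0.962 to 0.977 among the others, a description across rows that are not independent. Of all 16328 rows, 6941 were listed at 0 in it, against 2314 to 2984 elsewhere. By counting alone a 0 allows 3 reads, or 0.358 RPM for Control and 0.426, 0.399 and 0.623 RPM for SLEAR shRNA-1 to -3, but a 0 can also be a failed estimate. CD3G, a subunit of the T cell receptor complex, was at 0.239 RPM in Control and 0 elsewhere, although its partner CD3D was at 1580 to 1966 RPM. All 11 T lineage markers had a row, with a summed level of 4163 to 4651 RPM. The B cell marker CD79A had 12 RPM in Control, and 18.3 to 21.6 RPM with SLEAR shRNA. Myeloid, erythroid, fibroblast and epithelial markers with a row summed to at most 3.19 RPM for any type in any library.

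**Figure D1:**
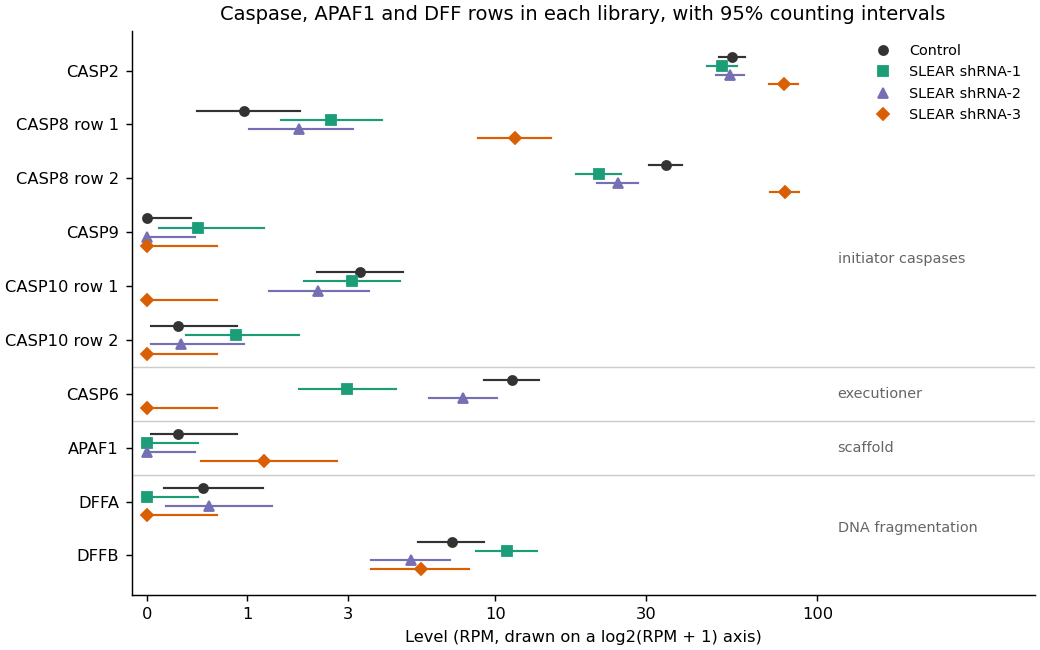
Level of each of the 10 rows in each library (x axis, RPM on a log2(RPM + 1) scale), with bars for the 95% exact Poisson interval of the estimated reads, or up to 3 reads for a 0, by counting error only. CASP2 and CASP8 row 2 lie far above the other rows, and the points of SLEAR shRNA-3 lie to the right for both and at 0 for CASP6 and CASP10.

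CASP2, the initiator that responds to DNA damage and faulty mitosis, was measured on the most reads of the 8 genes in Control. Control had 55.2 RPM (463 reads), and SLEAR shRNA-1, -2 and -3 had 51.4, 54.5 and 79.1 RPM. Control lay inside the range of the SLEAR shRNA libraries. The order from the top was SLEAR shRNA-3, Control, SLEAR shRNA-2 and SLEAR shRNA-1, and by the 95% counting intervals the lower 3 overlapped each other while SLEAR shRNA-3 (71.4 to 87.5 RPM) lay clear of them. The SLEAR shRNA mean was 61.7 ± 15.2 RPM (SD, n = 3). On the log2(RPM + 1) scale, on which low rows show less than their full change, the difference from Control was 0.13 ± 0.34 (SE), and it did not pass (limma-trend adjusted p = 0.993).

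CASP8, the initiator of death receptor signalling, also holds back necroptosis, another form of programmed death. Its main row, row 2, had 34.6 RPM in Control, while SLEAR shRNA-1, -2 and -3 had 21.4, 24.6 and 79.8 RPM. SLEAR shRNA-1 and -2 lay below Control and SLEAR shRNA-3 above it. The counting intervals of SLEAR shRNA-1 and -2 overlapped each other and no other library's: Control was at 30.7 to 38.8 RPM, SLEAR shRNA-1 at 18.1 to 25.1 RPM, SLEAR shRNA-2 at 21.2 to 28.4 RPM and SLEAR shRNA-3 at 72 to 88.2 RPM. The 3 averaged 41.9 ± 32.8 RPM (SD, n = 3). On the log2 scale they differed from Control by 0.01 ± 0.83 (SE, limma-trend adjusted p = 0.999). Without SLEAR shRNA-3 the direction turned and the log2 difference was -0.57 ± 0.19 (SE, limma-trend unadjusted p = 0.0533, adjusted p = 0.37). Over all 12350 rows tested, 9.55% were at 2-fold or more of the highest other library in SLEAR shRNA-3, as CASP8 row 2 and row 1 were.

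The lower row of CASP8, row 1, was at 0.954 RPM in Control, 2.55 RPM in SLEAR shRNA-1, 1.86 RPM in SLEAR shRNA-2 and 11.6 RPM in SLEAR shRNA-3. All SLEAR shRNA libraries lay above Control, but the Control value rests on 8 reads, and its interval of 0.412 to 1.88 RPM overlapped those of SLEAR shRNA-1 and -2. Control was under 1 RPM, so the row entered the test only through the SLEAR shRNA libraries, where it was higher. The log2 difference was 1.37 ± 1.14 (SE, limma-trend adjusted p = 0.993).

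Set against all CASP8 reads, row 1 made up 2.69% in Control (8 of 298 reads, exact 95% binomial interval 1.17 to 5.22%). It made up 10.7% in SLEAR shRNA-1 (6.44 to 16.3%), 7.04% in SLEAR shRNA-2 (3.9 to 11.5%) and 12.7% in SLEAR shRNA-3 (9.76 to 16.2%). The share was lowest in Control, and the interval of Control met that of SLEAR shRNA-2 only. With 1 library against 3, an exact one-sided permutation test cannot go below p = 0.25, the value it takes here. A Control share outside the range of the other libraries was common: among 494 genes with exactly 2 rows and at least 20 reads in each library, 38.3% had one. CASP10 was below that read minimum and its row 1 held 93.3% of 30 reads in Control, 78.6% of 28 in SLEAR shRNA-1, 89.5% of 19 in SLEAR shRNA-2, with 0 reads in SLEAR shRNA-3.

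**Figure D2:**
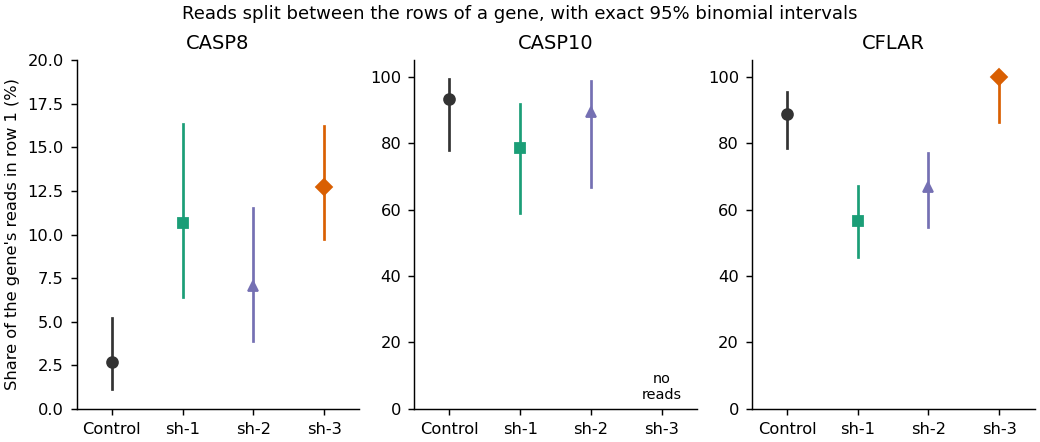
Share of a gene's estimated reads that fell in its row 1 (y axis, percent, on a shorter scale for CASP8) in Control and SLEAR shRNA-1 to -3 (sh-1 to sh-3), with exact 95% binomial intervals that cover counting error only. For CASP8 the Control share of 2.69% is the lowest, and for CFLAR, the CASP8 inhibitor, the Control share of 88.9% lies between those of SLEAR shRNA-2 and SLEAR shRNA-3.

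CASP10, the close relative of CASP8 found beside it on chromosome 2, was low. Its row 1 had 3.34 RPM in Control, and SLEAR shRNA-1, -2 and -3 had 3.12, 2.26 and 0 RPM. The first 3 of these values overlapped in their counting intervals, and the largest gap was to the 0 in SLEAR shRNA-3. The log2 difference was -0.87 ± 1.06 (SE, limma-trend adjusted p = 0.993), and without SLEAR shRNA-3 it was -0.24 ± 0.40 (SE, limma-trend adjusted p = 0.777). Row 2 was at 0.239, 0.851, 0.266 and 0 RPM in Control and SLEAR shRNA-1 to -3. CASP9, the initiator that the apoptosome activates, was at 0.426 RPM in SLEAR shRNA-1, from 3 reads, and listed at 0 in the other libraries. Both rows were below the 1 RPM needed for the test.

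CASP6, an executioner caspase known for cutting nuclear lamins, had the largest log2 difference from Control among the 7 tested rows of the 8 genes. It was at 11.3 RPM in Control (95 reads), 2.98 RPM in SLEAR shRNA-1, 7.84 RPM in SLEAR shRNA-2 and 0 RPM in SLEAR shRNA-3. Control was above all SLEAR shRNA libraries, though its interval of 9.17 to 13.9 RPM met that of SLEAR shRNA-2, 5.97 to 10.1 RPM. SLEAR shRNA-1, at 1.84 to 4.55 RPM, lay below both. The log2 difference was -1.91 ± 1.42 (SE), which did not pass (limma-trend adjusted p = 0.993), and without SLEAR shRNA-3 it was -1.06 ± 0.64 (SE, limma-trend adjusted p = 0.495).

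The 0 of CASP6 in SLEAR shRNA-3 stands among many. Of 1578 rows with a mean of 4 to 8 RPM in SLEAR shRNA-1 and -2, where CASP6 falls with 5.41 RPM, SLEAR shRNA-3 listed 26.7% at 0 and Control listed 0.127%. At 2 to 4 RPM, where CASP10 row 1 falls with 2.69 RPM, the share was 45.3%. By contrast only 2.53% of rows at 16 to 32 RPM, the range of CASP8 row 2, were at 0 there. What part this has in the differences of CASP6 and CASP10 was not tested.

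**Figure D3:**
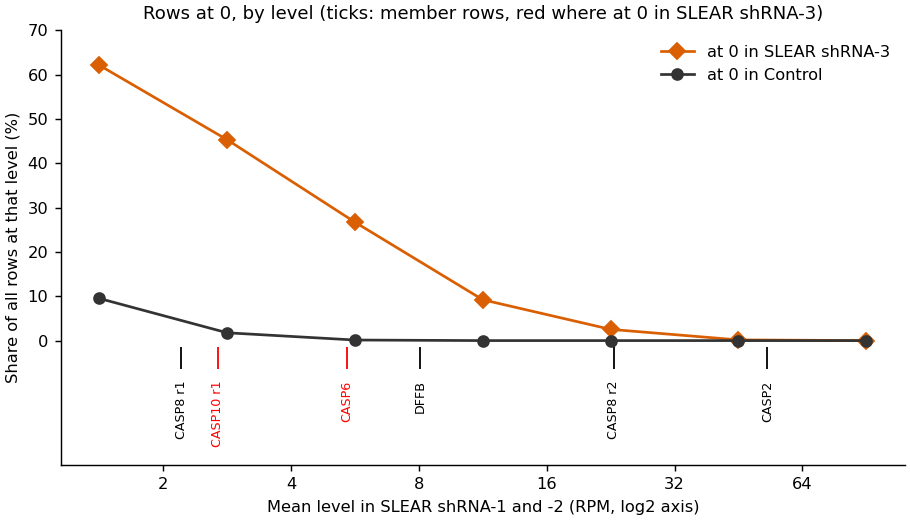
Share of rows at 0 (y axis, percent) in SLEAR shRNA-3 and in Control, by the mean level of the rows in SLEAR shRNA-1 and -2 (x axis, RPM, log2 scale, bins of 2-fold width). In SLEAR shRNA-3 the share is 62.1% at 1 to 2 RPM and 9.21% at 8 to 16 RPM, and ticks mark the rows of the 8 genes with at least 1 RPM, red for those at 0 in SLEAR shRNA-3.

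APAF1, the scaffold of the apoptosome, was listed at 0.239 RPM in Control, 0 in SLEAR shRNA-1 and -2 and 1.25 RPM in SLEAR shRNA-3. These are 2 reads in Control and 6 reads in SLEAR shRNA-3, with overlapping intervals, and the row entered the test only through SLEAR shRNA-3. The interval of SLEAR shRNA-3, 0.457 to 2.71 RPM, lay just above those of SLEAR shRNA-1 and -2, which ended at 0.426 and 0.399 RPM. The log2 difference of APAF1 was 0.08 ± 0.67 (SE, limma-trend adjusted p = 0.995), and without SLEAR shRNA-3 it was -0.31. No difference of APAF1 was detectable at this depth.

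DFFB, the nuclease that cuts chromatin, had 7.16 RPM in Control, and SLEAR shRNA-1, -2 and -3 had 10.9, 5.18 and 5.61 RPM. Control lay within the range of the SLEAR shRNA libraries, 7.24 ± 3.20 RPM (SD, n = 3). In the order SLEAR shRNA-1, Control, SLEAR shRNA-3, SLEAR shRNA-2, each library's interval overlapped that of its neighbour. The log2 difference was -0.05 ± 0.73 (SE, limma-trend adjusted p = 0.996). Its inhibitor DFFA had 0.477 RPM in Control, while SLEAR shRNA-1, -2 and -3 had 0, 0.532 and 0 RPM, at most 4 reads in any library, and was not tested.

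Together, 7 of the 10 rows, from 6 of the 8 genes, reached 1 RPM in a library and were tested, and 0 of 7 passed an adjusted p of 0.05 by limma-trend, where 0% of 12350 rows did. At an unadjusted p under 0.05 there were 0 of the 7, and 92 higher and 239 lower among all rows. Limma-voom on estimated reads also called 0 of 7, with an unadjusted p of 0.0797 for CASP6. Control was above all SLEAR shRNA libraries for 2 of the 7, CASP6 and CASP10 row 1, where this held for 28.6% of all tested rows. It was below all of them for 1 of the 7, CASP8 row 1, against 17.8% of all tested rows. Nothing is read from that row's direction, since it passed the filter only where it was high.

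**Figure D4:**
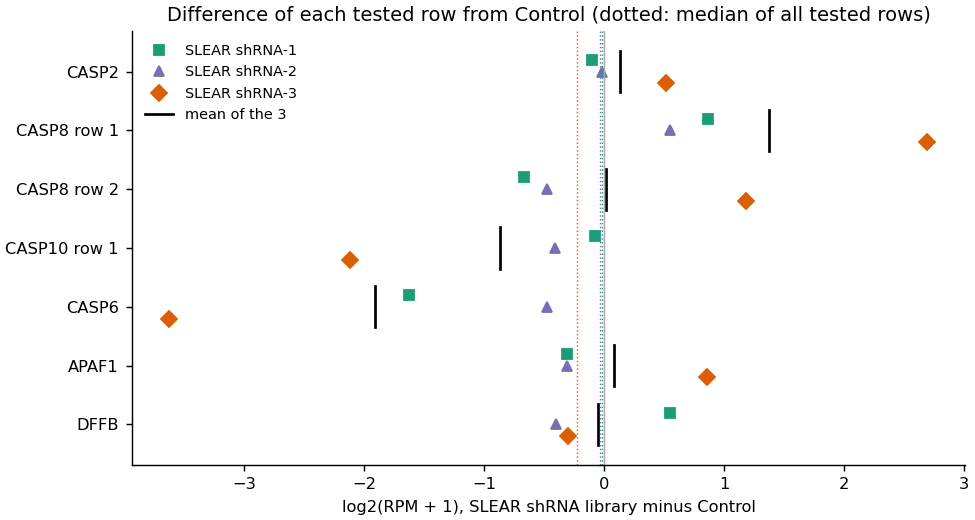
Difference of each tested row from Control on the log2(RPM + 1) scale (x axis) in SLEAR shRNA-1, -2 and -3, with the mean of the 3 as a black bar and the median of all tested rows in each library as a dotted line. SLEAR shRNA-3 is the outermost point for every row but DFFB, reaching 2.69 for CASP8 row 1 and -3.62 for CASP6.

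Initiators were then set against the executioner, CASP6, within each library. The mean log2 difference from Control of the 4 tested initiator rows (CASP2, CASP10 row 1 and both rows of CASP8, of which row 1 passed the filter only through SLEAR shRNA) was 0.005 in SLEAR shRNA-1, -0.09 in SLEAR shRNA-2 and 0.57 in SLEAR shRNA-3. That of CASP6 was -1.63, -0.48 and -3.62. Initiators minus executioner thus came to 1.64, 0.39 and 4.19, with a mean of 2.07 ± 1.94 (SD, n = 3). It was above 0 in all 3 libraries, but these share 1 Control, and the size differed widely between them. Without SLEAR shRNA-3 the mean was 1.01. CASP8 row 1 stood at 0.86, 0.55 and 2.69 in SLEAR shRNA-1 to -3, above the initiator mean in each. Nothing is therefore read from the sign of the initiator mean. With the rows of each gene summed, every tested initiator was above 1 RPM in Control, and initiators minus executioner averaged 1.72. The initiators did not move together: in SLEAR shRNA-3 both CASP8 rows and CASP2 were above Control and CASP10 row 1 was at 0. With 1 gene on the executioner side, initiators minus executioner is mainly the difference of CASP6.

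The rows whose 3 log2 differences lay nearest to those of CASP2, among 4848 other rows with a mean log2(RPM + 1) of at least 4, were BAD, a BH3-only promoter of apoptosis, and TAGLN2, an actin-binding protein. Their root mean square distances over the 3 SLEAR shRNA libraries were 0.0048 and 0.0063 on the log2 scale. BAD had 44.5 RPM in Control, while SLEAR shRNA-1, -2 and -3 had 41.4, 44.1 and 64 RPM. For CASP8 row 2 the nearest were CENPU, a centromere protein, at a distance of 0.048, and MPST, a sulfurtransferase, at 0.059. CENPU had 36.4 RPM in Control, followed by 22.1, 24.6 and 81.8 RPM. The 3 differences share 1 Control, and these rows were picked as the nearest of 4848, so small distances follow from the choice. Whether counting error decides which row is nearest was not tested, and no shared regulation is read from it.

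The other genes around the caspases were counted by role. Of 53 listed genes with a row, 48 rows were tested and 0 passed by limma-trend in the comparison of all libraries. There 0% of all 12350 rows passed, so this 0 and that of each role below were fixed. Control was above all SLEAR shRNA libraries for 15 rows (31.2%) and below all for 12 (25%), beside the 28.6% and 17.8% of the whole table. The 15 include HSPA1A, which passed the filter only through Control. The median log2 difference was -0.10, as against -0.11 over all tested rows.

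Of adaptors and inhibitors of the initiators, 0 of 10 rows passed, and 3 were lower and 0 higher in every SLEAR shRNA library. FADD, the adaptor that brings CASP8 to death receptors, had 121 RPM in Control, while SLEAR shRNA-1, -2 and -3 had 113, 100.1 and 82 RPM, a log2 difference of -0.31 ± 0.26 (SE). CARD8, a CARD protein reported to bind CASP9, had rows at 13.4 and 5.72 RPM in Control, of which the first was at 9.36, 7.04 and 0 RPM and the second at 2.41, 6.51 and 0.208 RPM. The second did not lie below Control throughout. PIDD1, which helps to activate CASP2, had 13.7 RPM against 20.6, 21 and 10.2 RPM, with SLEAR shRNA-1 and -2 above Control and SLEAR shRNA-3 below it.

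Of apoptosome regulators, 0 of 11 tested rows passed, with 5 lower and 3 higher in every SLEAR shRNA library and a median log2 difference of -0.69. That median counts SLEAR shRNA-3, in which some of these rows fell to or near 0, and the role holds both helpers and inhibitors of the apoptosome. The highest of these rows was PTMA, prothymosin alpha, reported to hinder apoptosome assembly, with 1170.1 RPM in Control, while SLEAR shRNA-1, -2 and -3 had 674, 637 and 662 RPM. Its SLEAR shRNA values lay close together and well below Control, with a log2 difference of -0.83 ± 0.18 (SE), an unadjusted limma-trend p of 0.00713 and an adjusted p of 0.993. PTMA has processed pseudogenes that can share its reads and is uncertain. HSPB1, a small heat shock protein with anti-apoptotic activity, had 95.5 RPM against 137, 138 and 114 RPM. HSPA1A, of which HSPA1B is a near-identical copy, had 1.19 RPM against 0, 0.399 and 0 RPM, and is likewise uncertain. It passed the filter only through Control, where it was high. Nothing is read from its direction, although it counts among the 5 lower rows.

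Among other caspases, 0 of 4 tested rows passed. CASP4, which senses bacterial lipopolysaccharide, was at 1.67 RPM in Control and higher in every SLEAR shRNA library, at 5.53, 3.32 and 6.23 RPM, with a log2 difference of 1.14 ± 0.76 (SE). CASP1, the caspase that matures interleukin-1 beta, had 2.11 RPM against 2.26, 0.47 and 0 RPM.

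Of the partners of DNA fragmentation, 0 of 7 tested rows passed, with 2 higher and 2 lower in every SLEAR shRNA library. DNASE2, the lysosomal nuclease that digests DNA of engulfed cells, had 85.3 RPM against 127, 103 and 138 RPM, all above Control, with a log2 difference of 0.51 ± 0.25 (SE). AIFM1, a mitochondrial flavoprotein that can move to the nucleus of dying cells, had 165 RPM against 154, 129 and 122 RPM, all below Control. PPIA, cyclophilin A, had 21.9 RPM against 33.5, 32.7 and 22.8 RPM. Its many pseudogenes make it uncertain.

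Of caspase substrates, 0 of 16 tested rows passed, with 6 higher and 5 lower in every SLEAR shRNA library. BID, which CASP8 cuts to carry the death signal on to the mitochondrion, had 32.8 RPM against 65.5, 55 and 97.6 RPM, all above Control, with a log2 difference of 1.08 ± 0.39 (SE, limma-trend unadjusted p = 0.0451, adjusted p = 0.993). PRKDC, the catalytic subunit of DNA-dependent protein kinase, had 405 RPM against 324, 268 and 351 RPM, all below Control. GAS2, a cytoskeletal protein, had 2.86 RPM against 6.53, 5.58 and 11 RPM.

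**Figure D5:**
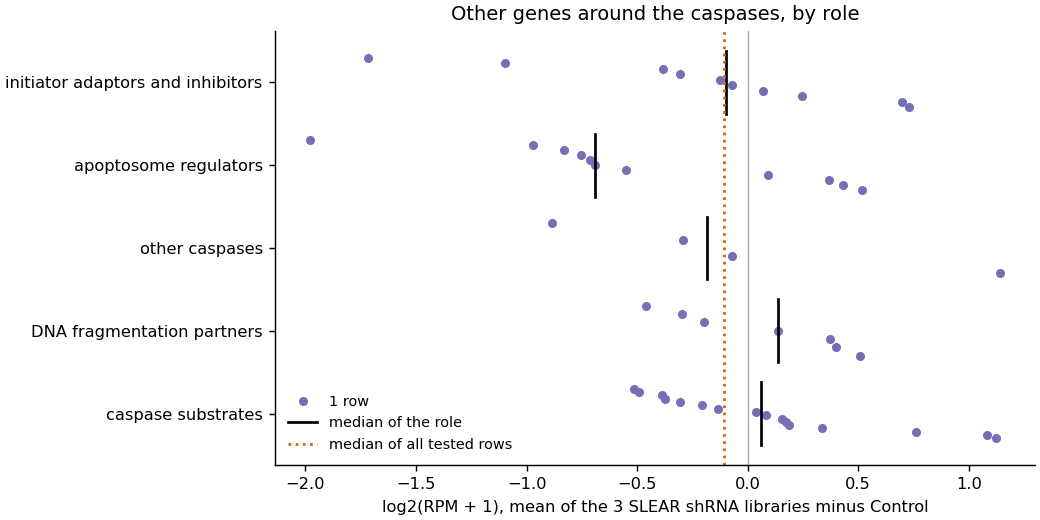
Log2 difference of each tested row around the caspases from Control, mean of the 3 SLEAR shRNA libraries (x axis), by role, with the median of each role as a black bar and the median of all tested rows, -0.11, as a dotted line. Apoptosome regulators have the lowest median, -0.69, and the points of every role lie on both sides of 0.

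A fit without SLEAR shRNA-3 on the 4851 rows with a mean log2(RPM + 1) of at least 4 called 14.4% of its rows. Of the 10 rows of the 8 genes only CASP2 and CASP8 row 2 entered it, and 0 of 2 passed: CASP8 row 2 was lower by limma-trend with an unadjusted p of 0.026 and an adjusted p of 0.119, and CASP2 had an adjusted p of 0.874. Of 21 rows around the caspases, 4 (19%) passed. The log2 difference was 0.85 ± 0.21 for BID (SE, limma-trend adjusted p = 0.00126) and 0.52 ± 0.17 for HSPB1 (SE, limma-trend adjusted p = 0.0224). It was -0.84 ± 0.13 for PTMA (SE, limma-trend adjusted p = 1.05e-08) and -0.46 ± 0.14 for PRKDC (SE, limma-trend adjusted p = 0.0162). All 4 calls were lost when only 1 of these choices was changed. Without SLEAR shRNA-3 alone the limma-trend adjusted p was 0.368 for BID, HSPB1 and PTMA and 0.372 for PRKDC, and with the filter alone it was 0.982 for each. The fit without SLEAR shRNA-3 on high rows has 1 residual degree of freedom per row, and its filter used all 4 libraries. The SE of a row there came in effect from the spread of all rows at its level, so its p-values do not measure a gene's own spread.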

How the data were processed

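MAPS libraries of polyadenylated RNA were sequenced on an Illumina HiSeq, per the labels' protocols. FastQC, Bowtie2, SAMtools and the build hg19 appear, without versions, per the submitters' processing notes. The authors deposited RPM values per transcript row, and how reads were assigned to rows, with or without strand, is not given in those sources. Columns summed to 85.3 to 89.5% of the total the RPM scale allows.

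Rows that shared all values were merged where they averaged 1 RPM or more (177 rows, none of the 8 genes). The step between low values gave the reads: 96.4 to 96.9% of low values above 0 were whole multiples within 0.05 reads, but 5 to 28 rows per library lay under 1 read, so the values were not tested as counts in the main comparison. Intervals cover counting error only, and use of molecular identifiers is not stated. SLEAR shRNA was compared with Control by limma-trend (limma 3.58.1, R 4.3.3) on log2(RPM + 1) over the 12350 rows that reached 1 RPM in any library. Benjamini-Hochberg adjustment covered all of them, at a threshold of 0.05. The spread came from the 3 SLEAR shRNA libraries, and Control was assumed to vary like them. The script was tested on simulated data, which checked only that known differences of high rows were recovered. Every simulated library had the same spread, so the check says nothing about power with a library like SLEAR shRNA-3 or for low rows.

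The genes and lists were chosen with earlier results of these data known. Named were all rows of the 8 genes, the 3 rows with the smallest p in each role, every row past the threshold, and the 2 nearest rows of each of the 8 genes' rows averaging 4 or more on the log2 scale. PIDD1 was added after its values were seen, and some genes that the rule names are not reported here. Alternatives were pseudocounts of 0.1 and 5, limma-voom on estimated reads, median-of-ratios scaling, changed filters, summed rows, and leaving out each SLEAR shRNA library. RefSeq gene order (GRCh38) was used for neighbours and GENCODE 29 for transcript ends, without coordinates.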

Additional observations from a re-analysis of the deposited data

How the results depend on the processing

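In 10 of the 11 alternatives no row of the whole table passed (smallest limma adjusted p 0.186 to 1), so the count of 0 for the 8 genes was fixed there. In the other, without SLEAR shRNA-3 on high rows, 14.4% of all rows passed and 0 of 2 rows of these genes. The rows around the caspases went from 0 to 4 past the threshold in the fit without SLEAR shRNA-3 on rows averaging 4 or more on the log2 scale, and stayed at 0 under the other 10. Initiators minus executioner kept its sign under all 8 alternatives that gave a value, from 1.01 without SLEAR shRNA-3 to 3.12 at a pseudocount of 0.1, and CASP6 averages under 4 on that scale, so the filter on that mean, alone or with SLEAR shRNA-3 left out, gave none. The directions of CASP6 and CASP10 row 1 were the same under all their alternatives, which share the 1 Control. That of CASP8 row 1 was also the same, but nothing is read from it, since the row passed the filter only where it was high. With its 2 rows summed, CASP8 had a log2 difference of 0.13 ± 0.85 (SE). Initiators minus executioner, which otherwise counts CASP8 row 1 as a row of its own, was then 1.72. Other directions turned, none of them called: CASP2 without SLEAR shRNA-3 (-0.061, with or without the filter on the mean), CASP8 row 2 without it (-0.57, likewise) and by limma-voom (-0.086). APAF1 turned at a pseudocount of 0.1 (-0.51), by limma-voom (-0.71) and without SLEAR shRNA-3 (-0.31). DFFB turned without SLEAR shRNA-2 (0.12) or SLEAR shRNA-3 (0.07). Leaving out each library in turn gave -0.061 to 0.25 for CASP2, -0.57 to 0.35 for CASP8 row 2, -0.31 to 0.28 for APAF1 and -0.35 to 0.12 for DFFB. The cause was not tested, apart from the library left out. CASP9, DFFA, APAF1 and CASP10 row 2 had at most 6 reads in any library, and whether depth or a failed estimate set these values was not tested.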

Other observations

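In the RefSeq gene order, CFLAR, CASP10 and CASP8 are consecutive protein-coding genes on chromosome 2. CFLAR encodes the CASP8-like protein that blocks CASP8 at death receptors. Its row 1 had 6.68 RPM in Control, while SLEAR shRNA-1, -2 and -3 had 7.24, 6.65 and 5.19 RPM, so Control lay within their range. Its row 2 had 0.835 RPM in Control, from 7 reads, then 5.53, 3.32 and 0 RPM. That row passed the filter only through SLEAR shRNA-1 and -2, where it was high, so nothing is read from its direction. Of the CFLAR reads, row 1 held 88.9% in Control (exact 95% binomial interval 78.4 to 95.4%), 56.7% in SLEAR shRNA-1 (45.8 to 67.1%), 66.7% in SLEAR shRNA-2 (54.8 to 77.1%) and 100% of 25 reads in SLEAR shRNA-3. In SLEAR shRNA-3 the CASP8 total was 91.4 RPM against 35.5 RPM in Control, and CASP10 was at 0 against 3.58 RPM. CFLAR had 5.19 RPM from 25 reads there, against 7.51 RPM from 63 reads in Control. In that library 45.3% of rows at the level of CASP10 row 1 were at 0. There 9.55% of tested rows were at 2-fold or more of the highest other library. Whether the 3 neighbours differed from each other beyond this was not tested.

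Several widely expressed genes of the same lists were near 0 in every library, beside CASP9, DFFA and APAF1. PAK2, a kinase cut by caspases, was listed at 0 in all 4 libraries. HMGB2, a chromatin protein, was at 0.119, 0, 0.399 and 0 RPM in Control and SLEAR shRNA-1, -2 and -3, while HMGB1 was at 136 to 195 RPM.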
